A study of Mus musculus with 9 samples.

Results

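Creb5 and its relatives Creb1, Crem, Atf2, Atf7 and Atf1 encode transcription factors of the CREB/ATF family, and NR4A2 chromatin immunoprecipitation signal at these 6 genes was examined in mouse heart ventricle. The genes were chosen from the CREB/ATF family with results of this comparison of the same libraries in view, so that all differences between the groups given here for them are descriptions and support nothing by themselves. A region of the deposited table belonged to a gene if it touched the RefSeq span of the gene (build GRCm38.p6) extended by 10 kb on each side. This rule took 14 of 16884 regions: 6 at Creb5, 2 each at Creb1, Crem and Atf7, and 1 each at Atf2 and Atf1.

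The compared libraries came from 3 Nr4a2-icTg mice, here called NR4A2 mice, and 3 littermates carrying aMHC-MerCreMer, here called control mice. Nr4a2-icTg mice combine a conditional Nr4a2 knock-in at ROSA26 with the Myh6-driven, tamoxifen-inducible Cre recombinase, which the controls carry as well, per the labels. All mice were 8 to 9 weeks old and received 1 injection of tamoxifen at 40 mg/kg, and hearts were taken at day 3. The Cre acts in cardiomyocytes, whereas chromatin came from whole ventricle, so that fewer cells with a signal and less signal per cell cannot be told apart. Values are CPM, reads scaled per library so that the listed regions summed to 989059 to 1009112 CPM. Each library held 549700 to 1035856 reads in these regions. Chromatin signal is not expression and does not identify a cell type. Of the marker genes listed, 5 of 5 for cardiomyocytes, 3 of 3 for endothelium, 1 of 3 for fibroblasts and 1 of 3 for macrophages had a region.

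CREB/ATF proteins bind DNA as dimers through a basic region and a leucine zipper, and many of them recognise the cAMP response element (CRE). CREB1, CREM and ATF1 form the branch that protein kinase A switches on by phosphorylation when adrenergic signalling raises cAMP in the heart. ATF2, ATF7 and CREB5 form a neighbouring branch that is best known for stress kinases acting on ATF2 and ATF7, and for pairing with JUN. NR4A2 is an orphan nuclear receptor that binds the NBRE, an extended nuclear receptor half-site, and Nr4a genes are themselves textbook targets of CREB.

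Promoter sequence was examined first, because regions lay over the promoter windows of 5 members. RefSeq windows reach from 250 bases before to 50 bases after a transcription start (build GRCm38.p6), and 5 of the 6 members matched one; Crem did not. Both strands were searched for 4 motifs: the NBRE (AAAGGTCA), the nuclear receptor half-site it contains (AGGTCA), the CRE (TGACGTCA) and the CRE half-site it contains (TGACG). Of all 32851 windows, 1.51% held the NBRE, 16.3% the AGGTCA half-site, 1.79% the full CRE and 20.8% the CRE half-site. The window at the upstream start of Creb5 held a full CRE 45 bases before that start (chr6:53287258-53287265), inside the region that covers the start. Atf1 held 1 AGGTCA and 1 TGACG. These letters were not found in the windows of Creb1, Atf2 or Atf7, and none of the members' windows held the NBRE letters. Sequence outside the windows was not searched. The search thus left out 5 of the 6 Creb5 regions and part of the region over the start, and says nothing about motifs there. The following stretches are shown because they are the CRE of Creb5 with its surroundings, the promoter sequence upstream of the Creb5 span, and the promoter of Atf1, whose strong signal was not called different. Capitals mark the motifs, and all stretches read along the plus strand, which is the strand of both genes.

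Creb5 CRE (chr6:53287247-53287276): ggaatcccacgTGACGTCAccgggggggtg

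Creb5 upstream (chr6:53287053-53287225): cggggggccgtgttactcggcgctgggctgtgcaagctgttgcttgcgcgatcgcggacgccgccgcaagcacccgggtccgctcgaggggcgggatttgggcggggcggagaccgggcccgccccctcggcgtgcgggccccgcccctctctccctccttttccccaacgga

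Atf1 upstream (chr15:100227609-100227858): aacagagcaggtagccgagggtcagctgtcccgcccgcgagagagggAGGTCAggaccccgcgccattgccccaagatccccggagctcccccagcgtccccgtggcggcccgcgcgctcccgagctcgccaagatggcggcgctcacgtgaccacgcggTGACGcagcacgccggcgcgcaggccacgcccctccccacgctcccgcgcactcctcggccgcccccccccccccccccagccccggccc

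A motif match describes these letters only. Within the 173 bases printed upstream of the Creb5 span, none of the 4 motifs occurred. The CRE lies within the annotated span of Creb5 (chr6:53287226-53700364, 413 kb, plus strand, gene ID 231991), which begins before the RefSeq start used here.

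Creb5 had higher NR4A2 signal in NR4A2 mice at every one of its 6 regions, and no region of the other 5 genes was called in either direction. The count of lower calls among the 14 regions was 0 by limma, edgeR and DESeq2, and 0 at an unadjusted p under 0.05 by limma. A region was called when limma on log2(CPM + 1), fitted over all 16884 regions, gave a Benjamini-Hochberg adjusted p under 0.05. Of all regions, 14.7% were called higher and 3.17% lower. The contrast had been used to choose the genes, so these shares are printed for scale and nothing is read from them. Summed over its 6 regions, which cover 2531 bp, Creb5 signal was 78.9, 93.4 and 74.2 CPM in control mice 1, 2 and 3, and 310, 254 and 299 CPM in NR4A2 mice 1, 2 and 3. Every NR4A2 mouse thus lay above every control mouse in this sum, in which the start region weighed most in control mice.

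**Figure D1:**
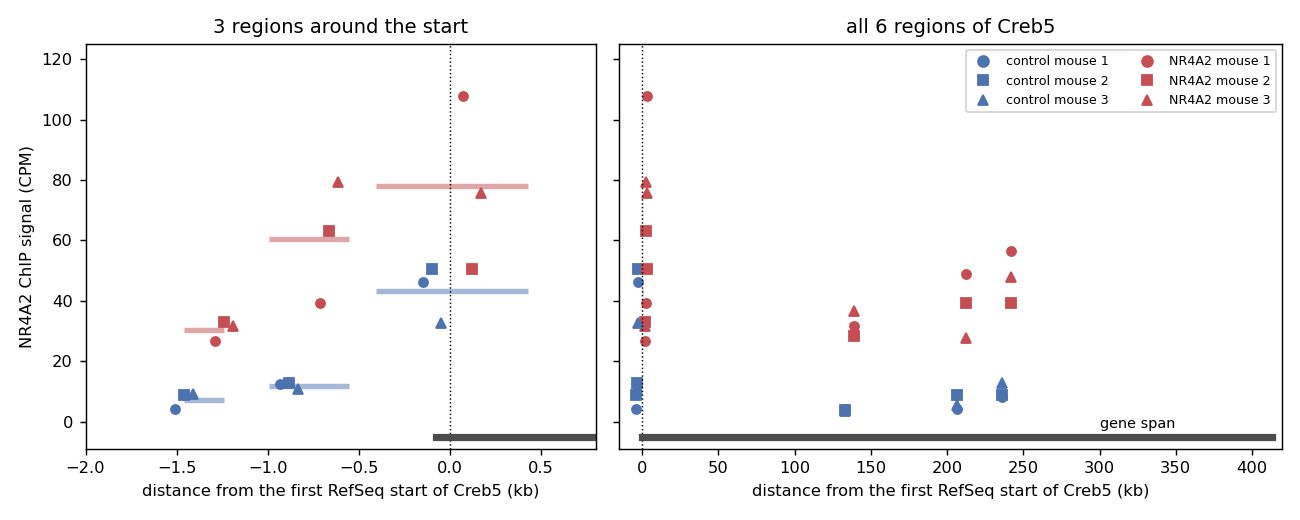
NR4A2 ChIP signal (CPM, vertical axis) at the 6 Creb5 regions against distance in kb from the upstream RefSeq start, with the 3 regions around the start enlarged on the left. Points are mice (control blue, NR4A2 red, shifted sideways so that they do not overlap), horizontal bars span each region at the group mean, and the grey bar is the gene span; at 5 regions all red points lie above all blue points, and at the region over the start they overlap, with 50.6 CPM in control mouse 2 and 50.4 CPM in NR4A2 mouse 2.

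The regions fell into a cluster at the upstream start and 3 single sites inside the gene. The cluster consisted of chr6:53285841-53286063, chr6:53286311-53286751 and chr6:53286898-53287733, separated by gaps of 247 and 146 bp. The last of these covers the start, while the other two lie 1163 and 475 bp outside the gene span. The sites inside the gene were chr6:53423187-53423404, chr6:53496349-53496680 and chr6:53525745-53526225, whose centres lie 136, 209 and 239 kb downstream of that start. The annotation used here gives gene spans without exons, so exon and intron are not told apart. No region touched the second RefSeq start of Creb5 at chr6 position 53573374. The site at 209 kb also overlaps the predicted gene Gm38814, and no other protein-coding gene lies within 10 kb of any of the 6 regions.

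The region over the Creb5 start, the longest of the gene at 836 bp, had its highest mean CPM and its smallest log2 fold change. It held 46.1, 50.6 and 32.6 CPM in control mice 1 to 3 and 107.9, 50.4 and 75.7 CPM in NR4A2 mice 1 to 3. NR4A2 mouse 1 was far above the rest, and NR4A2 mouse 2 was level with control mouse 2, so that the groups overlapped. The means were 43.1 ± 9.38 and 78.0 ± 28.8 CPM (SD, n = 3 each), with a log2 fold change of 0.80 ± 0.27 (SE). This call ended without control mouse 3, without NR4A2 mouse 1, without NR4A2 mouse 3, with DESeq2, on unscaled reads and when only regions of at least median signal were tested. The other 5 Creb5 regions kept their calls in every alternative that tested them. With the minimum at the median signal, a mean of 37.4 CPM, those 5 were not tested, and the count of called Creb5 regions was then 0.

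The regions just upstream of the start had larger fold changes. At the region centred 772 bp upstream, signal was 12.3, 12.7 and 10.9 CPM in the control mice and 39.1, 63.1 and 79.5 CPM in the NR4A2 mice. Control mice were close together there, NR4A2 mice spread over a wide range, and the groups did not overlap. The log2 fold change was 2.20 ± 0.38 (SE), from 11.9 ± 0.95 to 60.6 ± 20.3 CPM (SD, n = 3 each). NR4A2 mouse 1, the highest at the start, was the lowest of its group here, so the mice did not keep 1 order across neighbouring regions. At the region centred 1351 bp upstream, signal was 4.10, 8.76 and 9.05 CPM in control mice and 26.7, 33.1 and 31.5 CPM in NR4A2 mice. The NR4A2 mice were alike, and all lay above the control mice (log2 fold change 1.98 ± 0.50).

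Per kb of region, the 3 sites deep inside Creb5 had the lowest mean signal of the 6 in control hearts. At 136 kb, control mice 1 to 3 had 4, 4 and 2 reads (4.10, 3.89 and 3.62 CPM), whereas NR4A2 mice 1 to 3 had 33, 18 and 29 reads (31.5, 28.4 and 36.6 CPM). The groups lay far apart, with a log2 fold change of 2.76 ± 0.57 (SE). The 10 control reads together correspond to 3.91 CPM with an exact 95% Poisson interval of 1.88 to 7.20 CPM. The 80 reads of the NR4A2 mice correspond to 32.3 CPM (interval 25.6 to 40.2). These intervals cover counting error only.

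At 209 kb the control mice had 4.10, 8.76 and 5.43 CPM and the NR4A2 mice 48.7, 39.4 and 27.7 CPM. NR4A2 mouse 1 was highest and mouse 3 lowest, and all were above the controls (log2 fold change 2.50 ± 0.49 SE). At 239 kb the values were 8.20, 8.76 and 12.7 CPM in control mice and 56.3, 39.4 and 47.9 CPM in NR4A2 mice. Here too the groups were apart (log2 fold change 2.18 ± 0.41). In the authors' deposited table the 6 Creb5 regions had log2 fold changes of 2.07, 2.30, 0.85, 3.00, 2.62 and 2.32 in order of coordinate, and each carried the label Up-regulated.

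Shares of signal along Creb5 restate the fold changes above and are not a separate result. The other 5 regions held 2 to 13 reads in each control mouse. Whether they would have been listed without the NR4A2 mice is not known. The region over the start held 58.4, 54.2 and 43.9% of the summed Creb5 CPM in control mice and 34.8, 19.9 and 25.3% in NR4A2 mice. Every control mouse had a larger share at the start than any NR4A2 mouse. Per kb of region, the start region averaged 51.6 CPM in control mice against 17.8 to 32.7 CPM for the other 5. In NR4A2 mice it averaged 93.3 CPM per kb and the other 5 averaged 99.6 to 147 CPM per kb. The order of the means turned, although in single mice the start region was the highest of the 6 in control mice 1 and 2 and the lowest in NR4A2 mouse 2.

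**Figure D2:**
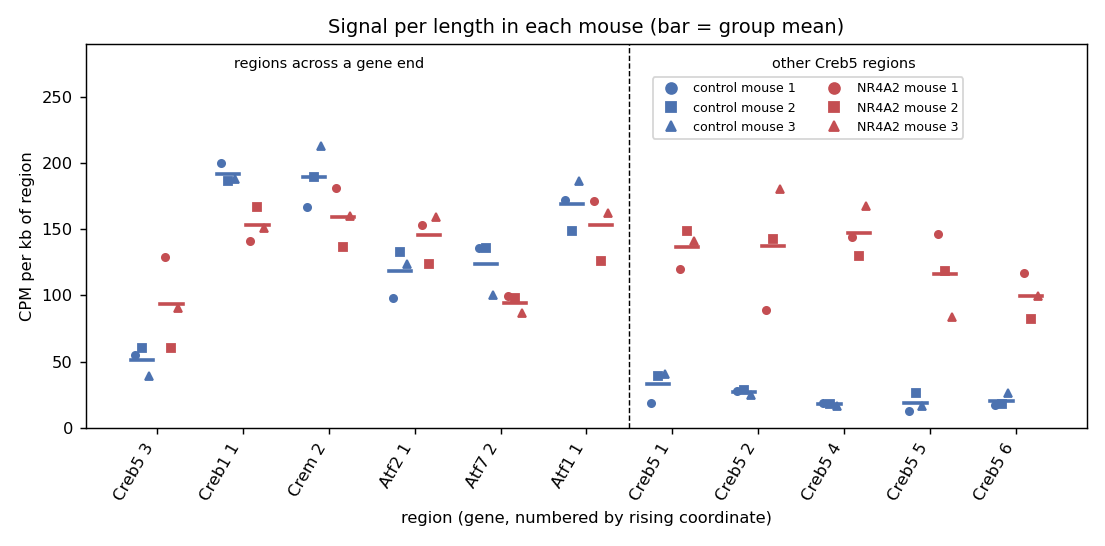
Signal per length (CPM per kb of region, vertical axis) in each mouse, with bars at the group means, for the regions across a gene end of the 6 genes (left of the dashed line) and the other Creb5 regions (right). In control mice (blue) the Creb5 start region, at 39.0 to 60.5 CPM per kb, lies below the end regions of the other 5 genes, and in NR4A2 mice (red) its range, 60.3 to 129 CPM per kb, overlaps those of Atf1, Atf2 and Atf7 and stays below those of Creb1 and Crem.

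Compared per kb of region, the gene-end regions of the 6 members were ordered in control mice with Creb1 (192 CPM per kb), Crem (189.6) and Atf1 (169) at the top, Atf7 (124) and Atf2 (118) in the middle and Creb5 (51.6) at the bottom. Ranges over the control mice overlapped among Creb1, Crem and Atf1 and between Atf7 and Atf2. Within each control mouse Creb1 was above Atf1, whereas the other overlapping pairs changed order from mouse to mouse. At Creb5 the control mice reached at most 60.5 CPM per kb, below the lowest value at the other genes, 97.9 CPM per kb at Atf2. In NR4A2 mice the means ran from Crem (159), Atf1 (153.2) and Creb1 (152.95) through Atf2 (145) to Atf7 (94.6) and Creb5 (93.3), and Creb5 (60.3 to 129 CPM per kb) overlapped Atf1, Atf2 and Atf7 but lay below every NR4A2 mouse at Creb1 and Crem. These levels describe the libraries, and no test was made of the order.

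Creb1 encodes CREB, the founding activator of the cAMP response. Its start region (chr1:64532321-64533282) held 193, 179 and 181 CPM in control mice and 136, 161 and 145 CPM in NR4A2 mice. All NR4A2 mice were below all control mice, and the region was not called (log2 fold change -0.33 ± 0.18 SE). NR4A2 mice lay wholly below the controls in 11.7% of all regions and wholly above them in 19.9%, and among the 14 member regions this was so for 2 and 5. A second region 1604 bp downstream of the start, chr1:64534253-64534562, held 14.3, 17.5 and 10.9 CPM in control mice and 15.3, 26.8 and 37.8 CPM in NR4A2 mice. NR4A2 mouse 1 lay within the control range, and the region was not called (0.79 ± 0.45). The fold there was like that at the Creb5 start, with a larger error on fewer reads.

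Crem encodes activators and, from an internal promoter, the short repressors called ICER, which damp the cAMP response. The region across the upper end of its span (chr18:3336531-3338068) held 256, 291 and 328 CPM in control mice and 279, 210 and 246 CPM in NR4A2 mice. The groups overlapped, with a log2 fold change of -0.25 ± 0.16 (SE). The region inside the gene (chr18:3280839-3281466) held 53.3, 84.7 and 52.5 CPM in control mice and 62.1, 53.6 and 44.1 CPM in NR4A2 mice. Control mouse 2 was the high one, the groups overlapped, and the log2 fold change was -0.23 ± 0.26.

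Atf1 encodes the close relative of CREB that pairs with it. Its start region (chr15:100226981-100228609) held 281, 242 and 304 CPM in control mice and 279, 205 and 265 CPM in NR4A2 mice. The groups overlapped (log2 fold change -0.15 ± 0.16 SE). Dip2b also lies within 10 kb of this region.

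Atf2 and Atf7 belong to the same branch as Creb5. At Atf2, which encodes a target of stress kinases, the start region (chr2:73892450-73892742) held 28.7, 38.9 and 36.2 CPM in control mice and 44.9, 36.3 and 46.7 CPM in NR4A2 mice. NR4A2 mouse 2 lay within the control range, and the log2 fold change was 0.30 ± 0.32 (SE). At Atf7 the start region (chr15:102624954-102625549) held 80.9, 80.8 and 59.7 CPM in control mice and 59.2, 58.3 and 51.7 CPM in NR4A2 mice. NR4A2 mice were alike and just below control mouse 3, the lowest of the controls (log2 fold change -0.37 ± 0.25). The other Atf7 region (chr15:102517549-102519128) lies 6818 bp outside the gene and overlaps Tarbp2, with Map3k12 and Npff within 10 kb. It held 132, 150 and 148 CPM in control mice and 153, 139 and 175 CPM in NR4A2 mice, which overlapped (0.11 ± 0.18).

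**Figure D3:**
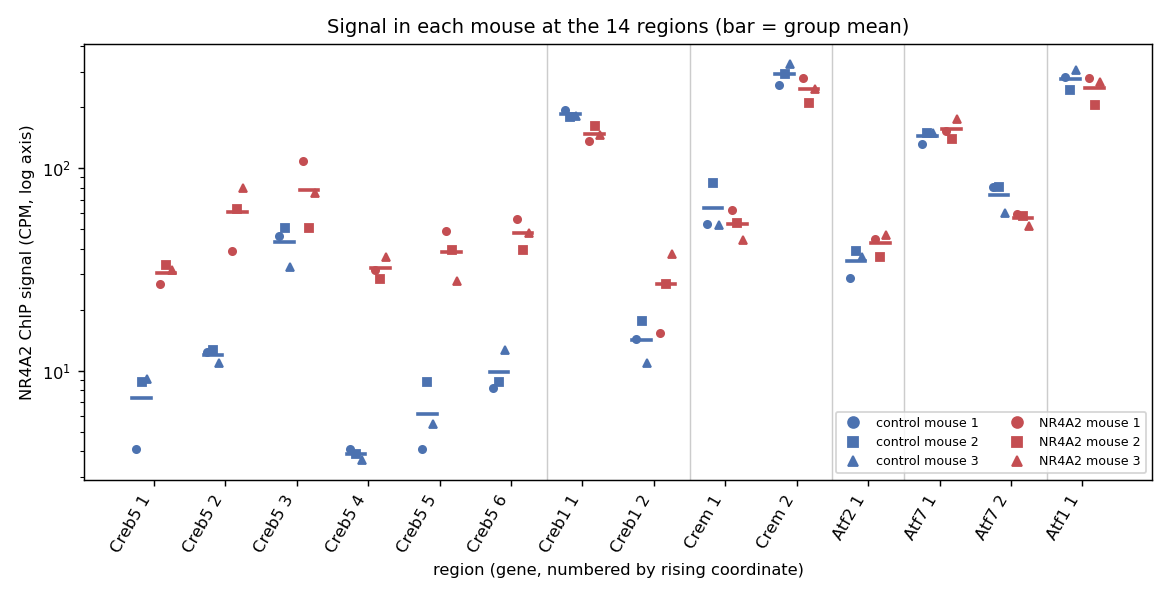
NR4A2 ChIP signal (CPM, log axis) in each mouse at the 14 regions, numbered within each gene by rising coordinate, with control mice in blue, NR4A2 mice in red and bars at the group means. The groups are apart with NR4A2 mice higher at 5 Creb5 regions, apart with NR4A2 mice lower at Creb1 1 and Atf7 2, and overlap at the other 7.

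Over the 8 regions of the other 5 genes the median log2 fold change was -0.19, against 2.19 over the 6 Creb5 regions and -0.06 over all regions. In the whole table it was -0.18 over regions touching a promoter window and 0.15 over the rest, and most of the 8 lie at a gene end. By limma none of these 8 was called, and none had an unadjusted p under 0.05; DESeq2, edgeR and the authors' deposited FDR called 0 of them as well. None was called, and none changed direction, in the alternatives run. Position differed too. Of the 5 member regions that touch a promoter window, 1 was called higher, that of Creb5, against 1.48% of the 6466 such regions in the table. Of the 9 that touch none, 5 were called higher, all at Creb5, against 22.8% of 10418 regions. Gains in the whole table thus lay mostly outside promoter windows, as did 5 of the 6 Creb5 regions. Of these 5, those centred 772 and 1351 bp upstream still belong to the cluster at the start, and the rest lie deep inside the gene. Crem had no window, so its region across the gene end counts among the 9. These positions are descriptions, and no test was made of them.

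**Figure D4:**
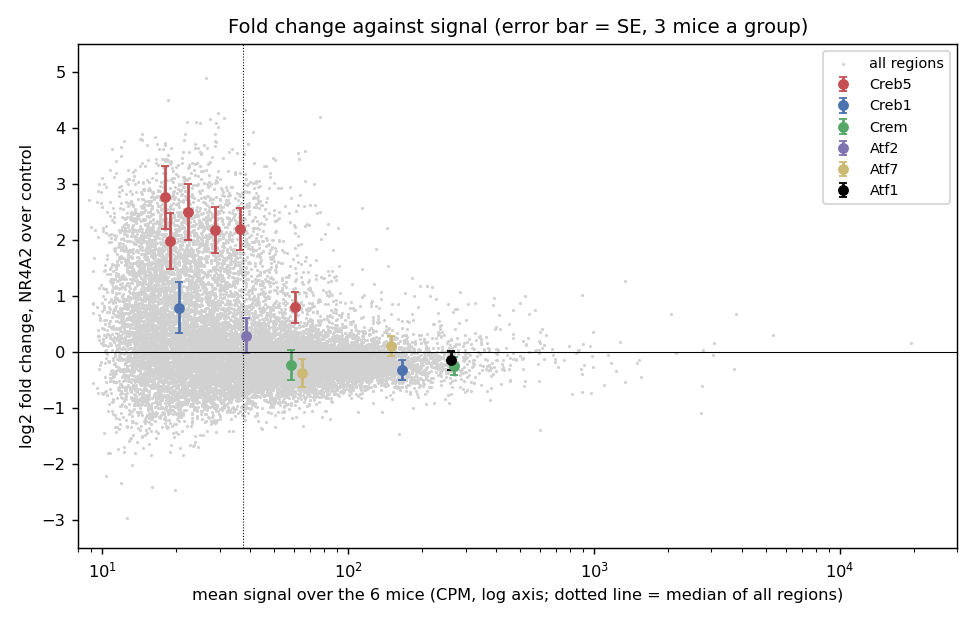
Log2 fold change, NR4A2 over control, against mean signal over the 6 mice (CPM, log axis) for all 16884 regions (grey) and the 14 member regions (coloured, error bars are SE). At 5 Creb5 regions, log2 fold changes are 1.98 to 2.76 at signal below the median of all regions (dotted line, 37.4 CPM), and the 8 regions of the other genes lie between -0.37 and 0.79.

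Without the 10 kb flanks, 4 Creb5 regions remained, all called higher. The nearest region on the side of Jazf1, 219 kb below the span, was lower in NR4A2 mice (29.3 ± 15.9 against 10.6 ± 2.83 CPM, SD, n = 3 each; limma log2 fold change -1.28 ± 0.47 SE). That call ended in 9 of 14 alternatives, among them each NR4A2 mouse left out in turn and control mouse 2 or 3 left out. The nearest region on the side of Tril, 120 kb above the span, was not called (24.1 ± 4.07 against 21.4 ± 4.71 CPM). At the limit of the 10 kb rule, the outermost region taken was the one 6818 bp outside Atf7, and the nearest one left out lay 12.5 kb above Creb1, at Mettl21a (64.7 ± 8.92 against 56.8 ± 13.8 CPM, SD, n = 3 each). Among the nearest regions around the other members, 1 region was called, at Dip2b, and it was higher, 25.1 kb below Atf1 (21.2 ± 9.75 against 62.2 ± 15.9 CPM, log2 fold change 1.60 ± 0.35).

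The regions most like the Creb5 start region in level over the 6 mice were sought by the root mean square difference of log2(CPM + 1). The smallest differences were found at Setmar (0.22), Aldoa (0.25), Plekha6 (0.28) and at 1 region shared by Spsb2 and Tpi1 (0.30). At Setmar the control mice had 38.9, 42.8 and 28.96 CPM and the NR4A2 mice 85.9, 48.9 and 64.3 CPM. NR4A2 mouse 1 was the highest and mouse 2 the lowest of its group, as at the Creb5 start. The search selected for like values in each mouse, so this shared order is no separate result. Likeness was measured over 6 mice, and nothing about function follows from it.

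Other genes of cAMP signalling and of the bZIP class were counted by gene and by region. This list too was chosen with earlier results of these data known, so the adjusted p-values given for its genes are descriptions and support nothing by themselves. Of 59 listed genes, 55 had a region; 9 (16.4%) had a region called higher and 5 (9.09%) a region called lower. Of all 11154 protein-coding genes with a region, 14.2% had a higher and 6.25% a lower region. By region, 13 of the 143 of the list (9.09%) were called higher and 5 (3.50%) lower, against 14.7% and 3.17% of all regions. The listed genes had a mean of 2.64 regions and all coding genes with a region 2.00, so that a listed gene had more regions that could be called. The median log2 fold change over the 143 regions was -0.10. Without control mouse 2, 1 gene had a lower region, and without any single NR4A2 mouse 3 genes did. Without NR4A2 mouse 3, 6 genes had a higher region.

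The coactivators of CREB showed no called region. Of 5 listed, 4 had a region (Crebbp, Ep300, Crtc2 and Crtc3), and none of their 9 regions was called by limma, edgeR or DESeq2. At an unadjusted p under 0.05, limma had 0 of them higher and 1 lower. Over all regions limma called 14.7% higher and 3.17% lower, and 9 regions are too few to compare. Of 11 genes of protein kinase A and cAMP turnover, 3 (27.3%) had a higher and 0 a lower region by limma. The shares over all coding genes with a region were 14.2% and 6.25%. Counted by region, 5 of 40 (12.5%) were called higher, against 14.7% of all regions, and 11 genes are too few to compare. Neither edgeR nor DESeq2 called a lower region in this class, and 4 of its 40 regions were lower at an unadjusted p under 0.05 by limma. At Pde4d, a cAMP-degrading enzyme gene of heart muscle, 3 of 5 regions were higher, and signal at the one with the largest fold went from 6.26 ± 4.34 to 36.2 ± 6.64 CPM (SD, n = 3 each; limma log2 fold change 2.50 ± 0.51 SE, adjusted p = 0.000109). At Adcy5, a cardiac adenylyl cyclase gene, signal went from 6.51 ± 2.37 to 32.3 ± 15.5 CPM (2.09 ± 0.52, limma adjusted p = 0.00161), a call that ended without NR4A2 mouse 3 (adjusted p = 0.0593, range over the alternatives 0.000171 to 0.0593). Pde3a was the remaining gene, with 1 of 4 regions higher (1.48 ± 0.39), a call that ended without NR4A2 mouse 3 and on unscaled reads.

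Kinases that act on the family or its coactivators had lower regions at 2 of 12 genes (16.7%) and higher regions at 0 by limma. Over all coding genes with a region, 6.25% had a lower and 14.2% a higher one, and no direction is read from 12 genes. For the kinases, edgeR and DESeq2 gave 0 higher regions too, and 3 of their 20 regions were higher at an unadjusted p under 0.05 by limma. At Sik1, which holds CRTC coactivators outside the nucleus, 1 of 4 regions was lower (141 ± 41.4 against 81.9 ± 9.81 CPM, SD, n = 3 each; limma log2 fold change -0.74 ± 0.21 SE, adjusted p = 0.00590). That call ended without control mouse 3 and on unscaled reads, with adjusted p of 0.0840 and 0.413. At Camk2d, the main cardiac calcium/calmodulin kinase gene, 1 of 3 regions was lower (-0.49 ± 0.17, limma adjusted p = 0.0274), a call that ended in 6 of 15 alternatives, with control mouse 1 or 2 or NR4A2 mouse 1 or 2 left out among them.

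Among 21 bZIP relatives and partners with a region, 4 (19.0%) had a higher and 2 (9.52%) a lower one. The shares over all coding genes with a region were 14.2% and 6.25%. Counted by region, 5 of 52 (9.62%) were called higher and 2 (3.85%) lower, against 14.7% and 3.17% of all regions. Creb3l1, which encodes a membrane-bound CREB relative of the secretory pathway, had 1 of 2 regions higher. Signal there was 9.22, 4.87 and 1.81 CPM in control mice and 51.6, 64.6 and 79.5 CPM in NR4A2 mice (limma log2 fold change 3.56 ± 0.46 SE, adjusted p = 5.77e-09). The only region of Batf3, which also lies near Nsl1, went from 7.03 ± 2.10 to 49.1 ± 10.1 CPM (2.66 ± 0.45, limma adjusted p = 2.83e-06). Creb3l2 had 2 of 4 regions higher (2.05 ± 0.43 for the larger) and Jun 1 of 4 (0.54 ± 0.20), while Crebrf (-0.64 ± 0.21) and Junb (-0.65 ± 0.21) each had 1 lower region. The calls at Creb3l1, Batf3 and Creb3l2 held in every alternative that tested them, and those at Jun, Crebrf and Junb ended in 9, 5 and 5 of 15. Pde3a, Creb3l2, Jun, Crebrf, Junb and Nr4a1 were chosen for naming after their values had been seen.

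Of 7 textbook targets of cAMP signalling, 2 had a higher region, Ppargc1a and Bdnf, and 1 a lower one, Nr4a1. Over all coding genes with a region 14.2% had a higher and 6.25% a lower one, and 7 genes are too few to compare. At Ppargc1a, which encodes a coactivator of mitochondrial genes, 2 of 8 regions were higher, and the larger held 15.4, 13.6 and 16.3 CPM in control mice and 46.8, 78.8 and 61.8 CPM in NR4A2 mice. At Bdnf, a neurotrophin gene, the single region held 9.22, 8.76 and 5.43 CPM in control mice and 67.8, 66.2 and 69.4 CPM in NR4A2 mice. At both genes the groups lay apart. At Nr4a1, the paralogue of Nr4a2, 1 of 2 regions was lower (83.7 ± 24.8 against 47.5 ± 8.90 CPM, SD, n = 3 each; limma log2 fold change -0.77 ± 0.26 SE, adjusted p = 0.0241). That call ended in 7 of 15 alternatives, including control mouse 2 or 3 and NR4A2 mouse 2 or 3 left out, and adjusted p ranged from 0.00443 to 0.425 over the alternatives.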

How the data were processed

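NR4A2 ChIP libraries of 6 mice were analysed; the antibody test ChIP, its input and the pooled input were not analysed here. Reads were aligned with BWA to GRCm38 (mm10), per the submitters' processing notes; no source used here names the peak caller or counter. The authors deposited CPM per mouse. Dividing each column by its lowest value above 0 returned whole reads (100% of values within 0.001 of a whole number), and 1 read was worth 0.955 to 1.81 CPM. The deposited log2 fold change, log2 mean CPM, p-value and FDR are the authors'. Whether the fly spike-in entered the values is not given, and a change shared by all regions would not be seen.

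The main test was limma 3.58.1 (R 4.3.3; trend and robust moderation) on log2(CPM + 1) over all regions, genotype as the only term, without a filter. Fold changes are on this scale; the added 1 pulls those of weak regions toward 0, while averaging logs can also give more than a count fit (Creb3l2, 2.05 against 1.73 with edgeR). Alternatives were pseudocounts 0.5 and 5, a median-signal filter, no robust moderation, unscaled reads, edgeR 4.0.16 and DESeq2 1.42.0 on recovered reads, the authors' FDR, a replicate block, no flank, and each mouse left out. The fits were run on simulated data with 200 regions changed, as many up as down. Calls in the real data were mostly higher, so the simulation cannot vouch for them under that imbalance. Members and lists were chosen with earlier results of these data known. Named by rule were all member regions and the 5 genes with regions most like the called Creb5 region of highest mean CPM. Of the pathway genes, the rule took the 2 per class with the largest called change. Named outside the rule were Pde3a, Creb3l2, Jun, Crebrf, Junb, Nr4a1 and the coactivators with a region. Nothing in the labels names separate litters or days, so neither could be entered as a term. The limma p-values set the group difference against the spread between mice within groups, moderated over all regions.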

Additional observations from a re-analysis of the deposited data

How the results depend on the processing

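At the 6 CREB/ATF genes the count of regions called higher was 6 under edgeR, the authors' FDR, both pseudocounts and limma without robust moderation, 5 with DESeq2 and on unscaled reads, and 4 without flanks. With only regions of at least median signal it was 0, since 5 of the Creb5 regions were then not tested. The count called lower stayed 0. With 1 mouse left out the higher count ranged from 5 to 6 and the lower count from 0 to 0. Over all regions the calls ranged from 1577 to 2332 higher and 270 to 454 lower with 1 mouse left out, and listed pathway genes ranged from 6 to 10 with a higher and from 1 to 4 with a lower region. DESeq2 gave 251 lower regions and 3 pathway genes with a lower region. The median-signal filter gave 481 higher and 235 lower regions, and 3 pathway genes with a higher and 3 with a lower region. Unscaled reads gave 1398 higher and 14 lower regions, and 0 pathway genes with a lower region; the cause was not tested. The uncalled region at Mettl21a changed sign, with a log2 fold change of -0.32 to 0.011 over the mice left out in turn, the latter without NR4A2 mouse 2; no other named value changed direction. With the mouse number as a replicate block the counts were 2540 higher and 580 lower regions, 6 and 0 at the CREB/ATF genes; deviations of same-numbered mice correlated at -0.07, 0.06 and 0.03, so the numbers are not taken as pairs. Control mouse 3 had the lowest depth, where 3 reads are worth 5.43 CPM, above the level of some control values at Creb5.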
